A study of Mus musculus with 12 samples.

Results

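Homeostatic microglia marker genes are transcripts used to mark resting microglia of the adult brain, and not every one is absent from other macrophages. The 9 genes described here (P2ry12, P2ry13, Gpr34, Cx3cr1, Selplg, Siglech, Tmem119, Olfml3 and Sall1) were chosen by symbol and were found in the count table through their mouse gene identifiers. All 9 were among the 15688 genes that passed the filter on low counts, of 50563 genes in the table. RNA-Seq was performed on the cortex of 12 aged E4FAD mice, with 1 library per mouse. Every mouse had the genotype APOE4+/+, 5FAD-/+, that is, human APOE4 in place of mouse Apoe on both alleles and familial Alzheimer's disease transgenes that neurons express. The 7 CTRL mice received the vehicle by gavage, and the 5 DPAn-6 mice received 700 mg/kg of docosapentaenoic acid n-6 (DPAn-6), a long-chain metabolite of linoleic acid, daily for 3 weeks, with the same antioxidants in the gavage of both groups. At sampling, 2 CTRL and 2 DPAn-6 mice were 12 months old and the others, 5 CTRL and 3 DPAn-6 mice, were 14 months old. Both groups held females and males. The sex of single mice is not in the labels, but the level of Xist, a transcript of female cells, is given below.

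Microglia are the resident macrophages of the brain. In health they survey the tissue with moving processes, and their identity depends on transcription factors such as SALL1 and on TGF-beta and CSF1 receptor signalling. Around amyloid plaques, microglia are known to lower homeostatic genes such as P2ry12 and Tmem119 while raising disease-associated genes such as Cst7 and Itgax. In whole cortex, a lower level of these transcripts can come, among other sources, from fewer microglia or from less RNA per cell. These cannot be told apart here.

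All 9 genes had a negative log2 fold change in DPAn-6 mice relative to CTRL mice, where 51.3% of all genes tested did. Olfml3, Tmem119 and Selplg fell, by 56.3%, 41.5% and 35.8%, and passed an adjusted p of 0.05 over all genes, a threshold that 1.14% of all genes passed in this direction. The other 6 did not pass it, and Cx3cr1 had nearly the same level in both groups. By edgeR without adjustment, 7 of the 9 had a p below 0.05 and were lower in DPAn-6 mice, against 9.02% of all genes. The median log2 fold change of the 9 genes was −0.47, and that of all genes was −0.00. Without CTRL replicate 3, a library described below, the median of the 9 was −0.28, all 9 values were still negative and 6 of the 9 had an unadjusted p below 0.05 (12.5% of all genes, lower in DPAn-6 mice). Fold changes and adjusted p-values are from edgeR's quasi-likelihood test with Benjamini-Hochberg adjustment over all genes tested, and a gene that passed an adjusted p of 0.05 is said to be called. CPM is the count of a gene scaled to the library total. For each of the 9 genes the difference between the group means of log2 CPM was also set against all 792 ways to divide the 12 mice into 7 and 5 (exact permutation, two-sided), whose smallest p is 0.00126.

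**Figure D1:**
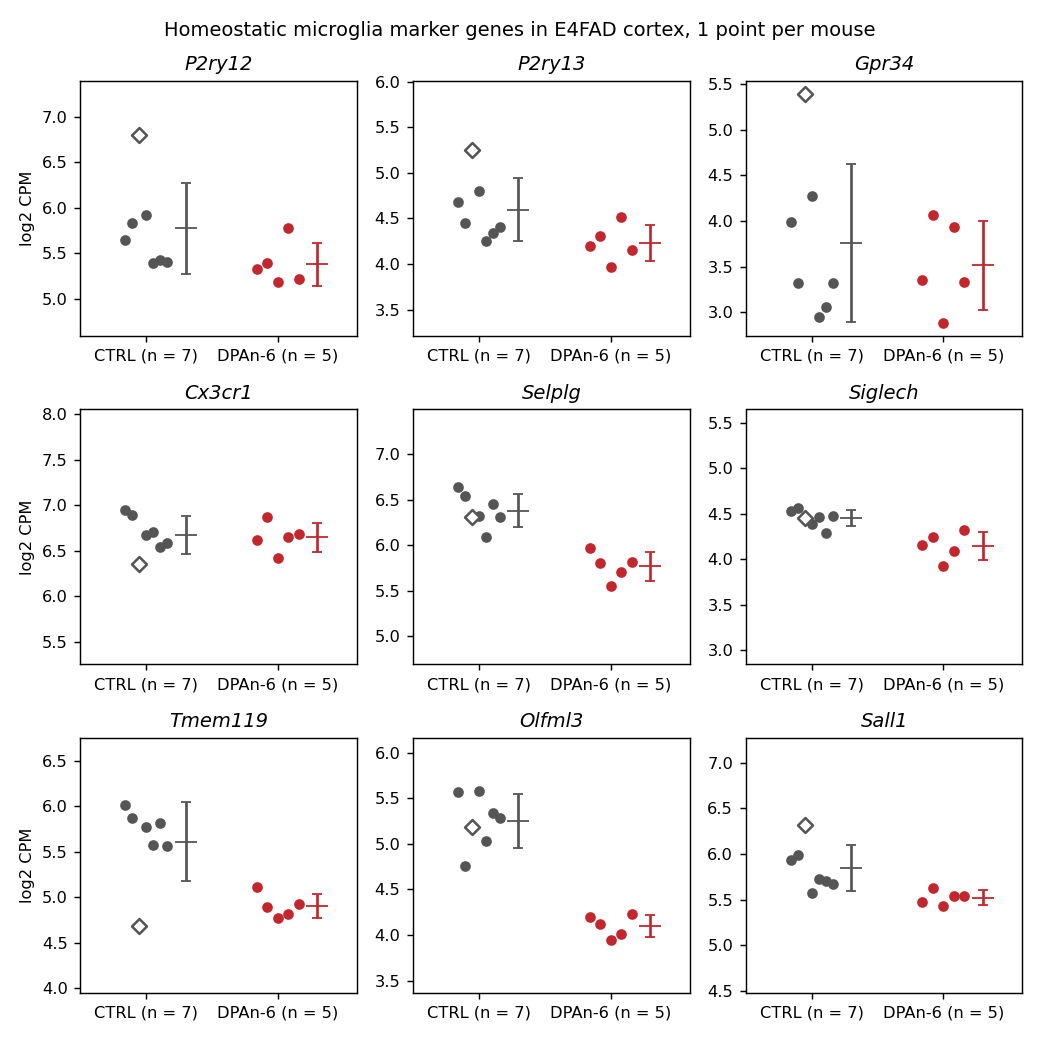
Level of each of the 9 genes in every mouse, in log2 CPM on the vertical axis, for CTRL (grey, n = 7) and DPAn-6 (red, n = 5). The horizontal ticks are group means, the bars are ± 1 SD, the open diamond is CTRL replicate 3, and every panel spans the same number of log2 units. Selplg and Olfml3 do not overlap between the groups, and the open diamond is the highest point for P2ry12, P2ry13, Gpr34 and Sall1 and the lowest for Tmem119 and Cx3cr1.

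The libraries held 15208803 to 26520251 counts, and each of the 9 genes had at least 146 counts in every mouse. One library stands apart. In CTRL replicate 3, log2 CPM fell by 0.56 for each 10% of transcript GC content, relative to each gene's median over all mice, where the other 11 libraries had slopes from −0.15 to 0.18. The results below are therefore given with and without this mouse wherever it decides them. CTRL replicates 2, 5 and 3 also held much Ttr (10.58, 9.88 and 7.38 log2 CPM), the transthyretin transcript of the choroid plexus, which ranged from 0.87 to 4.59 in the other mice. Xist was 9.15 to 10.57 log2 CPM in CTRL replicates 1, 2, 3 and 7 and DPAn-6 replicates 1, 2 and 5. It was 0.46 to 2.07 in CTRL replicates 4, 5 and 6 and DPAn-6 replicates 3 and 4. Markers of neurons, astrocytes and oligodendrocytes were high in every library (5812 to 8155 summed CPM over 6 neuronal genes in CTRL and 6701 to 7447 in DPAn-6 mice), as in cortex. Of 6 oligodendrocyte genes, 5 had positive log2 fold changes (median 0.27) and 0 were called. All 6 mural and fibroblast genes had negative ones (median −0.42, 1 called), as had the 3 tested choroid plexus genes (median −2.71, 0 called). Of all genes, 51.3% were negative and 1.14% were called as lower. The part of these cells in the results was not tested. Markers of monocytes and neutrophils were nearly absent, at 0.458 to 7.11 summed CPM over 7 genes in CTRL and 0.263 to 0.924 in DPAn-6 mice. The 6 of 8 border macrophage markers that could be tested had negative log2 fold changes, with Mrc1, Cd163 and F13a1 past the threshold, and their summed level was 12.0 to 17.9 CPM in CTRL and 5.39 to 7.66 CPM in DPAn-6 mice. That is low beside the 397 to 516 and 293 to 367 CPM summed over the 9 homeostatic genes, and its part in the results was not tested.

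Levels of different genes were compared per length of transcript, as log2 RPKM. In CTRL mice, Cx3cr1 (4.50), P2ry12 (4.42), Tmem119 (4.40) and Selplg (4.28) were the most abundant and followed each other by less than their spread. Sall1 (3.45) lay below Selplg in 7 of 7 CTRL mice and in 5 of 5 DPAn-6 mice. P2ry13 followed at 3.26, and Siglech (2.69) lay below P2ry13 in 7 of 7 and 5 of 5 mice. Siglech, Gpr34 (2.69) and Olfml3 (2.63) could not be ordered in CTRL mice. In DPAn-6 mice, Cx3cr1 lay above P2ry12, P2ry12 above Tmem119 and Gpr34 above Olfml3 in 5 of 5 mice each.

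P2ry12 and P2ry13 encode purinergic receptors for ADP, and P2Y12 guides microglial processes towards sites of injury. The genes are neighbours on GRCm38 chromosome 3 (P2ry12, ENSMUSG00000036353, 59216272 to 59262871; P2ry13, ENSMUSG00000036362, 59207892 to 59210882), both on the minus strand with 5389 bases between them. Both lie inside the span of Med12l on the opposite strand, which shares 9 exon bases with P2ry12 and 0 with P2ry13. Their start regions are shown because their levels followed each other across mice, as described below, together with those of Siglech, the other gene with a match to the motif GAGGAA, and of Olfml3, the gene with the largest difference. The windows run 5′ to 3′ on the gene's strand, from 250 bases before to 50 bases after the RefSeq start on GRCm38.p6: chr3:59262936-59263235 (minus strand) for P2ry12, chr3:59210833-59211132 (minus strand) for P2ry13, chr7:55767934-55768233 (plus strand) for Siglech and chr3:103737952-103738251 (minus strand) for Olfml3. Capitals mark GAGGAA on either strand, the core of the site of the myeloid factor PU.1.
P2ry12: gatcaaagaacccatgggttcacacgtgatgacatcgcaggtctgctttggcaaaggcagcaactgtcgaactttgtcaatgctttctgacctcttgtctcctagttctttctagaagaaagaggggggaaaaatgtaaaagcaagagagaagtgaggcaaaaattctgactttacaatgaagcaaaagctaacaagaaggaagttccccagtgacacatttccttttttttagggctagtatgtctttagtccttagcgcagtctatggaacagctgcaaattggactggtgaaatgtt
P2ry13: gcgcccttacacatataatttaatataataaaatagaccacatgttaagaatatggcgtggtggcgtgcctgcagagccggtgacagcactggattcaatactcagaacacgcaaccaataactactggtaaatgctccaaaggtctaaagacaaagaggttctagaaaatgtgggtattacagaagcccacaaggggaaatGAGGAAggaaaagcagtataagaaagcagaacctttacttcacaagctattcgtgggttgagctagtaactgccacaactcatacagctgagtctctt
Siglech: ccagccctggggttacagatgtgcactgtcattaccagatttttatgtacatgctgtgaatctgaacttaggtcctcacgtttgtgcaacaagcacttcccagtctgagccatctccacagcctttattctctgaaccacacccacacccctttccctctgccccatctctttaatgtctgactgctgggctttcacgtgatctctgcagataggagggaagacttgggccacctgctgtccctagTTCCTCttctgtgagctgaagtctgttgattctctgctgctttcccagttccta
Olfml3: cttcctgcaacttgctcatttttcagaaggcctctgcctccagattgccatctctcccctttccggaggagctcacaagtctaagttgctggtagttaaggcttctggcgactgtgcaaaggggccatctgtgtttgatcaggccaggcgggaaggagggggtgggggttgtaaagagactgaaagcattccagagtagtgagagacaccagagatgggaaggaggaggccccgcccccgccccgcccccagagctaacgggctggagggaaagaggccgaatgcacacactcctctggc
Of the 9 genes, 6 had such a window in the RefSeq table. GAGGAA was found in P2ry13 at position −48 and, on the minus strand, in Siglech at position −4, counted from the start, and in 28.3% of all 32851 windows of this length. The longer PU.1 motif GAGGAAGT, a composite PU.1 and IRF site, the SMAD motif GTCTAGAC and a MEF2 site were not found in any window of the 9 genes, and occurred in 3.2%, 2.7%, 0.2% and 3.2% of all windows.

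P2ry12 had a lowest value of 5.39, a median of 5.64 and a highest value of 6.80 log2 CPM in CTRL mice, and 5.33, 5.39, 5.19, 5.77 and 5.22 in DPAn-6 replicates 1 to 5. CTRL replicate 3 held the highest value and DPAn-6 replicate 4 lay above 4 of the 7 CTRL mice. By edgeR, P2ry12 had a log2 fold change of −0.49 (standard error 0.23, p = 0.0479, adjusted p = 0.337), and the exact permutation p was 0.110. Without CTRL replicate 3 its log2 fold change was −0.24 (standard error 0.12, edgeR adjusted p = 0.228). P2ry13 ranged from 4.26 to 5.25 in CTRL mice (median 4.45) and was 4.20, 4.30, 3.97, 4.51 and 4.16 in DPAn-6 mice. All 5 DPAn-6 mice lay below the CTRL mean of 4.60 ± 0.35 (SD, n = 7), and 3 lay below every CTRL mouse. Its log2 fold change of −0.43 (standard error 0.17) had an adjusted p of 0.241 by edgeR and an exact permutation p of 0.0505, which with 1 mouse left out ranged from 0.0303 to 0.127 and was below 0.05 in 3 of 12 cases (CTRL replicate 5, CTRL replicate 6 or DPAn-6 replicate 4 left out). Med12l, whose reads could be mixed with theirs if strand was not used in the counting, had a mean of 5.93 ± 0.10 (SD) over the 7 CTRL mice and 5.74 ± 0.08 (SD) over the 5 DPAn-6 mice (edgeR log2 fold change −0.22, adjusted p = 0.141).

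Gpr34 (ENSMUSG00000040229, chromosome X, 13632089 to 13640858, plus strand, inside the span of Cask on the opposite strand) encodes a receptor for lysophosphatidylserine. It varied more between mice than any of the other 8 genes. CTRL mice ranged from 2.95 to 5.39 log2 CPM (median 3.32), and DPAn-6 mice had 3.35, 4.07, 2.88, 3.93 and 3.33. Its log2 fold change of −0.47 (approximate 95% interval −1.25 to 0.30, by the normal distribution) rested on 1 mouse, and without CTRL replicate 3 it was −0.01. Cask had a mean of 6.65 ± 0.11 (SD) over the 7 CTRL mice and 6.71 ± 0.10 (SD) over the 5 DPAn-6 mice.

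Cx3cr1 (ENSMUSG00000052336, chromosome 9, 119901616 to 120069879, minus strand) encodes the receptor for fractalkine, through which neurons signal to microglia. Its levels were 6.36 to 6.95 log2 CPM in CTRL mice (median 6.68) and 6.62, 6.87, 6.42, 6.65 and 6.68 in DPAn-6 mice. Every DPAn-6 value lay within the CTRL range. The estimate was a log2 fold change of −0.05 (standard error 0.10), its 95% interval ran from −0.25 to 0.14, and the exact permutation p was 0.838. The interval does not reach the log2 fold changes of Olfml3, Tmem119 or Selplg. Of its exon bases, 78 (1.7%) overlap the antisense gene Gm33858.

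Selplg (ENSMUSG00000048163, chromosome 5, 113818536 to 113832644, minus strand) encodes PSGL-1, a mucin-like ligand of selectins. CTRL mice had at least 6.09 log2 CPM (median 6.32, highest 6.63), and the DPAn-6 mice had 5.97, 5.81, 5.55, 5.70 and 5.81. The highest DPAn-6 value was below the lowest CTRL value, a separation that 1.49% of all genes tested showed. Selplg had a log2 fold change of −0.64 (standard error 0.10, edgeR adjusted p = 0.00551) and the smallest exact permutation p, 0.00126. Siglech (ENSMUSG00000051504, chromosome 7, 55768178 to 55778925, plus strand) encodes a sialic acid-binding lectin that signals through the adaptor DAP12, the product of Tyrobp. It was 4.29 to 4.56 log2 CPM in CTRL mice (median 4.47) and 4.15, 4.24, 3.93, 4.09 and 4.32 in DPAn-6 mice, so that 4 of the 5 were lower than any CTRL mouse. Its log2 fold change of −0.33 (standard error 0.08) had an edgeR adjusted p of 0.0631 and an exact permutation p of 0.00253. Siglech was called in 5 of 25 alternative fits. One was DESeq2 (adjusted p = 0.00639), which called 3.16% of all genes as lower. Another was limma-voom with sample weights (adjusted p = 0.0239, 4.87% of all genes). By edgeR it was called without CTRL replicate 3 (adjusted p = 0.0236, 3.98% of all genes). It was also called with the length and GC trend described below removed (edgeR adjusted p = 0.0288, 1.72% of all genes) and with Xist as covariate (edgeR adjusted p = 0.0316).

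Tmem119 (ENSMUSG00000054675, chromosome 5, 113793729 to 113800516, minus strand) encodes a membrane protein widely used to stain microglia. Its gene lies 18019 bases from Selplg, with no other tested gene between them. In 6 CTRL mice it had 5.56 to 6.01 log2 CPM, above all DPAn-6 values of 5.11, 4.89, 4.78, 4.82 and 4.92, and CTRL replicate 3 had 4.69, below every DPAn-6 mouse. Tmem119 had a log2 fold change of −0.77 (standard error 0.16, edgeR adjusted p = 0.0286, exact permutation p = 0.0139), and without CTRL replicate 3 it was −0.88 (standard error 0.09, adjusted p = 4.49e-05). The adjusted p passed 0.05 in 3 of the 12 fits that leave out 1 mouse, rising to 0.102 at most, so that the call depended on single mice. It was lost without CTRL replicate 1, 2, 4 or 6 or any 1 of the 5 DPAn-6 mice.

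Olfml3 (ENSMUSG00000027848, chromosome 3, 103722222 to 103738001, minus strand) encodes a secreted olfactomedin-like protein. It showed the largest difference of the 9 genes. CTRL mice had 4.76 to 5.58 log2 CPM (median 5.28), and DPAn-6 mice had 4.20, 4.13, 3.95, 4.01 and 4.23, so that the groups were apart by more than the range of the DPAn-6 mice. Counts of Olfml3 ran from 245 to 835. Its log2 fold change was −1.19 (standard error 0.13, edgeR adjusted p = 0.0005, exact permutation p = 0.00126). The call held in 12 of 12 fits without 1 mouse, with log2 fold changes from −1.26 to −1.14, and the same was true of Selplg, from −0.68 to −0.58.

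Sall1 (ENSMUSG00000031665, chromosome 8, 89027235 to 89044162, minus strand) encodes the zinc-finger transcription factor that maintains microglial identity. CTRL mice had 5.58 to 6.32 log2 CPM (median 5.73), and DPAn-6 mice had 5.47, 5.63, 5.43, 5.54 and 5.54. DPAn-6 values were close together, and 4 of the 5 were lower than any CTRL mouse. Sall1 had a log2 fold change of −0.37 (standard error 0.12, edgeR adjusted p = 0.150, exact permutation p = 0.0152), and without CTRL replicate 3 it was −0.27 with an adjusted p of 0.0427. By the exact permutation test alone, Olfml3, Selplg, Siglech, Tmem119 and Sall1 were lower at a p below 0.05, 5 of the 9 genes, against 7.15% of all genes tested. Within the DPAn-6 group, replicate 3 held the lowest value of every one of the 9 genes, and its mean over 10 general myeloid genes was also the lowest of all mice, at 4.69 log2 CPM.

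The 9 genes differed in how far CTRL replicate 3 lay from the other 6 CTRL mice. Gpr34, with 37.1% GC in its transcript, was higher in that mouse by 1.91 on the log2 scale, P2ry12 (38.6% GC) by 1.19 and P2ry13 (44.7% GC) by 0.76. Tmem119, at 59.1% GC the richest in GC of the 9, was lower by 1.08 (difference −1.08). With the dependence on transcript length and GC fitted and subtracted in each library, these differences were 1.18, 0.56, 0.54 and −0.52, so that a part of each followed the trend. Sall1 (0.55, and 0.64 with the trend removed) and Cx3cr1 (−0.37 and −0.32) changed little with this step. Without CTRL replicate 3, 5 of the 9 genes passed the adjusted threshold, all lower in DPAn-6 mice, against 3.98% of all genes, and P2ry12 and P2ry13 had log2 fold changes of −0.24 and −0.28. With all mice and the trend removed, 4 passed, against 1.72% of all genes, and P2ry12 and P2ry13 had adjusted p-values of 0.0628 and 0.0734.

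**Figure D2:**
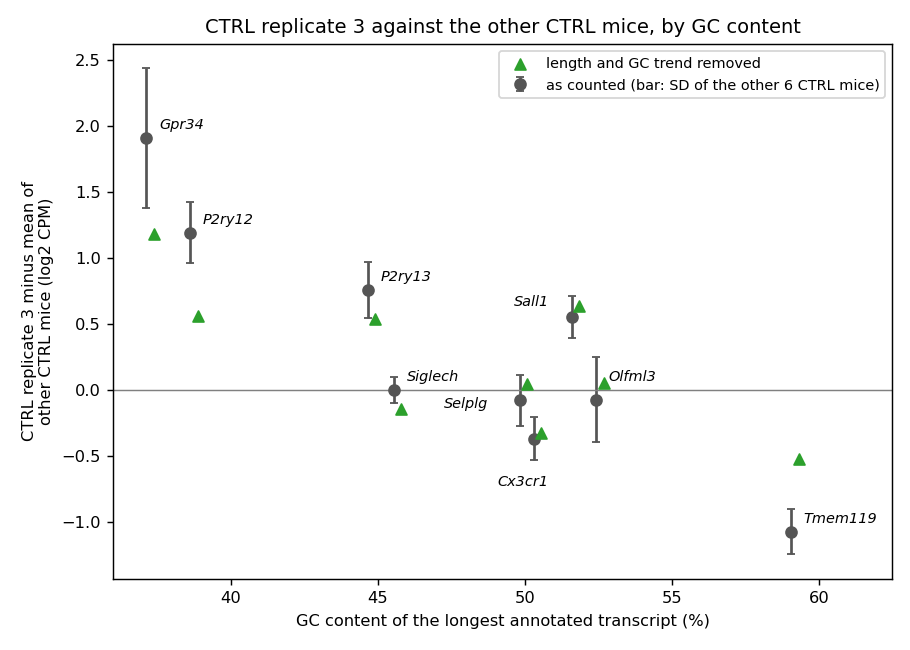
Difference between CTRL replicate 3 and the mean of the other 6 CTRL mice (vertical axis, log2 CPM) for each gene, against the GC content of its longest annotated transcript (horizontal axis, %). Grey points are values as counted with a bar of ± 1 SD of the other 6 CTRL mice, and green triangles, drawn slightly to the right, have the length and GC trend removed. Gpr34 and P2ry12 at the left lie at 1.91 and 1.19 and Tmem119 at the right at −1.08, and the triangles lie nearer to 0 for these 3 genes.

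**Figure D3:**
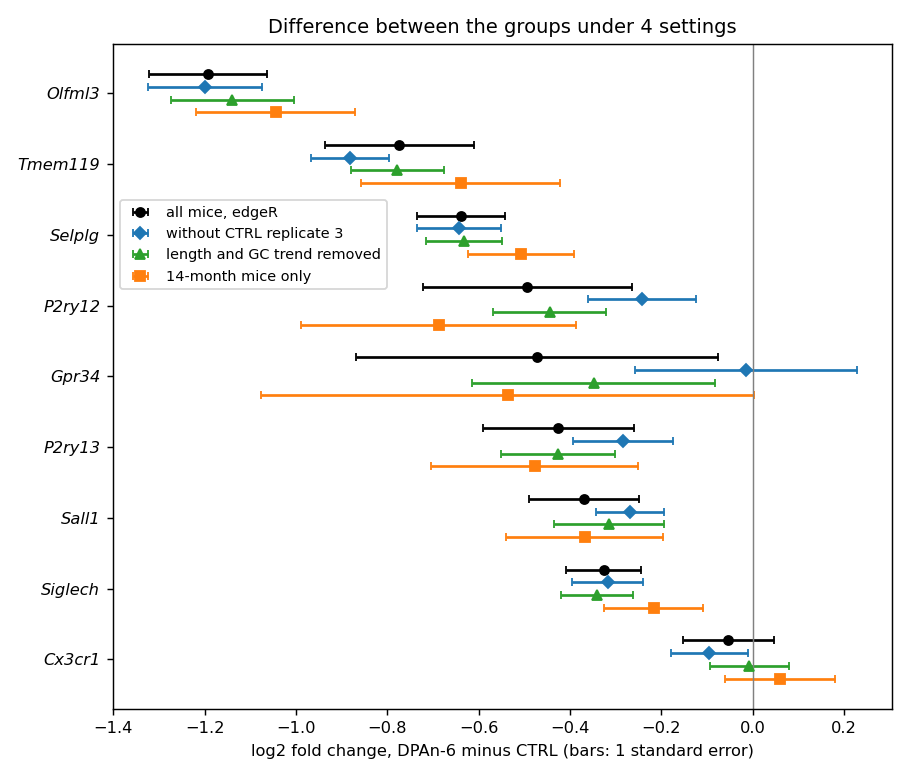
Log2 fold change of each gene (horizontal axis, DPAn-6 relative to CTRL, with bars of ± 1 standard error) in 4 fits: all mice, without CTRL replicate 3, with the length and GC trend removed, and in 14-month mice only. Olfml3, Tmem119 and Selplg stay below −0.5 in all 4, while Gpr34 moves from −0.47 to −0.01 without CTRL replicate 3 and Cx3cr1 lies near 0.

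The difference between groups was also computed at each age. In the 14-month mice the log2 fold change was −1.05 for Olfml3, −0.65 for Tmem119 and −0.52 for Selplg, and in the 12-month mice it was −1.46, −1.01 and −0.86. The DPAn-6 mice of both Olfml3 and Selplg lay below the CTRL mice of their own age at both ages. P2ry12 had −0.70 at 14 months and −0.03 at 12 months, and Cx3cr1 had 0.05 and −0.24. The 14-month CTRL mice include replicate 3, with 6.80 log2 CPM of P2ry12 against 5.39 to 5.92 in CTRL replicates 2, 4, 5 and 6. No 14-month fit left that mouse out, and P2ry12 had an exact permutation p of 0.143 at that age. None of the 9 genes had a group-by-age interaction below an adjusted p of 0.05 by edgeR (0 of 9 below an unadjusted p of 0.05, with p from 0.106 to 0.852). Over all genes, 0.00637% had such an interaction at the adjusted threshold and 4.26% at an unadjusted p below 0.05. With 2 mice per group at 12 months, this says little about equal responses. By Xist, the 12-month CTRL mice (9.65 and 9.42 log2 CPM) were female and the 12-month DPAn-6 mice (2.07 and 1.48) male. The 14-month DPAn-6 mice (9.18, 9.60 and 9.15) were all female, and the 14-month CTRL mice were of both sexes. The difference between the groups at 12 months therefore cannot be told apart from a difference between the sexes. Nor can differences between the ages. In a fit of the 14-month mice only, 0 of the 9 genes were called (edgeR adjusted p = 0.0963 for Olfml3, and 4 of the 9 genes, Olfml3, Selplg, Tmem119 and P2ry12, at an unadjusted p below 0.05), where 0.0376% of all genes were called as lower and 5.36% were lower at an unadjusted p below 0.05. With the log2 level of Ttr as covariate, Olfml3 alone was called (log2 fold change −1.44, edgeR adjusted p = 0.000645; background 0.0829% of genes lower). The log2 fold changes of Selplg (−0.67, adjusted p = 0.0819) and Tmem119 (−0.83, adjusted p = 0.240) were as large as without this covariate. With the 3 CTRL mice of highest Ttr left out, Olfml3, Selplg and Tmem119 were all called (background 2.37%). These mice include CTRL replicate 3, the library with the GC trend, so that fit cannot tell Ttr apart from the loss of this library. Tmem119 had −0.90 in it and −0.88 without CTRL replicate 3 alone. By limma-voom the same 3 genes were called (background 1.03%), and with sample weights in limma-voom 5 of the 9 were (background 4.87%).

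To compare the 9 genes with macrophage genes in general, the log2 CPM of each was taken relative to the mean of 10 genes that most brain macrophages express (C1qa, C1qb, C1qc, Ctss, Laptm5, Cd53, Ly86, Fcer1g, Ptprc and Aif1). These 10 genes had negative log2 fold changes throughout, with a median of −0.35, and C1qb and C1qc passed the threshold. Relative to them, Olfml3 was lower in DPAn-6 mice by 0.69 on the log2 scale (difference −0.69, two-sided exact permutation p = 0.00379), with 4 of the 5 lower than any CTRL mouse, and 0.382% of all genes were lower at a p below 0.05 on this scale. Cx3cr1 was higher relative to them by 0.44 (exact permutation p = 0.00631), which 62.4% of all genes also were at a p below 0.05, so that Cx3cr1 moved as most genes did. For the other 7 genes, the relative differences lay between −0.25 (Tmem119) and 0.22 (Gpr34), with exact permutation p from 0.133 to 0.804. Without CTRL replicate 3, Tmem119 had −0.40 (exact permutation p = 0.00866), and without CTRL replicate 5 Siglech had 0.21 (exact permutation p = 0.0303). The difference in Selplg was −0.15 on this scale. Leaving C1qa, C1qb and C1qc out of the reference gave −0.31 for Selplg (exact permutation p = 0.0202) and 0.28 for Cx3cr1 (exact permutation p = 0.0758).

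**Figure D4:**
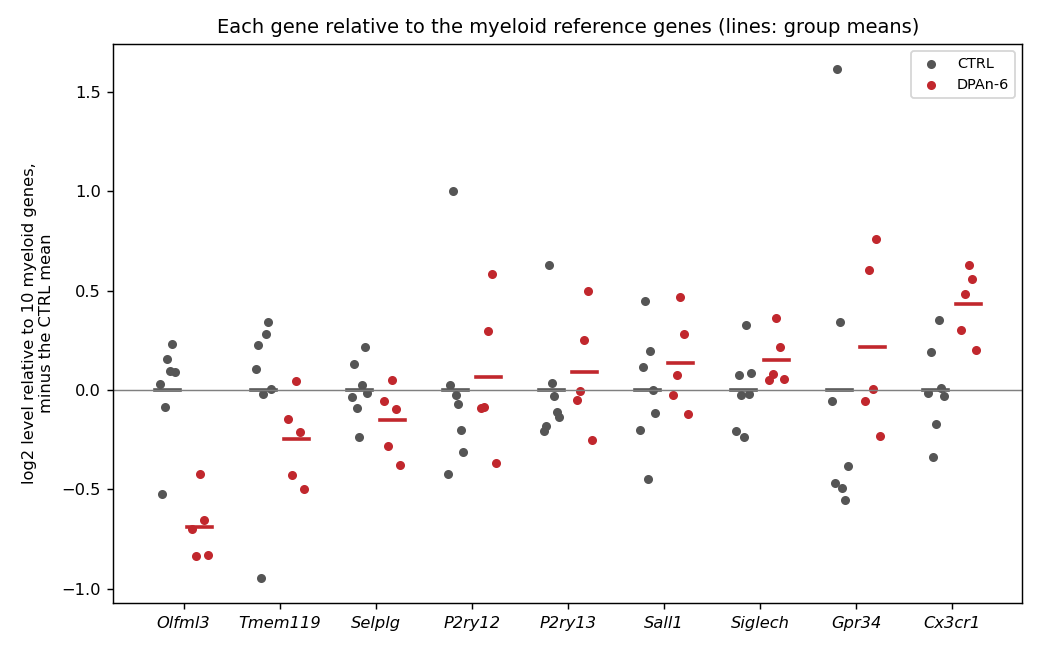
Level of each gene relative to the mean of 10 general myeloid genes in every mouse (log2, vertical axis, set to 0 at the CTRL mean), CTRL in grey and DPAn-6 in red, with lines at the group means. Olfml3 is the only gene with its DPAn-6 mean far below 0 (−0.69), and Cx3cr1 has the highest DPAn-6 mean (0.44).

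The ligands and signalling partners of the 9 genes did not all share their direction. Of 14 such genes 11 could be tested, 7 with negative and 4 with positive log2 fold changes, and only Cx3cl1 was called (1.55% of all genes were, in either direction). Of all genes, 51.3% had a negative log2 fold change. At an unadjusted edgeR p below 0.05, 4 of the 11 were lower (Tyrobp, Tgfb1, Tgfbr2 and Smad3), against 9.02% of all genes. Another 2, Cx3cl1 and Kcnk13, were higher, as were 865 of all genes. Cx3cl1, the fractalkine ligand of Cx3cr1 that neurons express, rose from 9.53 ± 0.18 (SD) over the CTRL mice to 9.95 ± 0.07 log2 CPM (SD) over the DPAn-6 mice, without overlap between the groups (log2 fold change 0.39, standard error 0.08, edgeR adjusted p = 0.0193, exact permutation p = 0.00126). Its adjusted p was above 0.05 with Ttr as covariate (0.339, log2 fold change 0.36), in 14-month mice only (0.240, log2 fold change 0.45) and without DPAn-6 replicate 1 (0.0578), 3 (0.0683) or 5 (0.0520). Kcnk13, the potassium channel THIK-1 of microglial surveillance, had a log2 fold change of 0.44 (edgeR adjusted p = 0.119), and Gnai2, a G protein subunit of the chemotactic receptors, had −0.14. Tyrobp, the DAP12 partner of Siglec-H, had −0.46 (edgeR adjusted p = 0.319). Among genes of the TGF-beta pathway that maintains homeostatic microglia, Tgfb1 had −0.19, its receptor Tgfbr2 −0.30 (adjusted p = 0.0886 by edgeR) and the signal transducer Smad3 −0.20. The CSF1 receptor ligands Il34 and Csf1 had 0.13 and −0.16, the lysophosphatidylserine lipase Abhd12 had 0.06 and Bmp4 had −0.09. Hcst, an adaptor gene, and Selp, which encodes P-selectin, had at most 14 counts in any mouse and were not tested.

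In a wider list of 22 homeostatic microglial genes, 2 were called, both lower in DPAn-6 mice, where 1.14% of all genes were called as lower. Of the 22 log2 fold changes 21 were negative (51.3% of all genes were), with a median of −0.33, and −0.26 without CTRL replicate 3. Csf1r, the receptor on which microglial survival depends, had a mean of 8.03 ± 0.22 log2 CPM (SD) in the CTRL group and 7.56 ± 0.16 (SD) in the DPAn-6 group (log2 fold change −0.50, edgeR adjusted p = 0.0282). Vsir, an immune checkpoint receptor, had 6.40 ± 0.19 (SD) and 5.97 ± 0.15 (SD; log2 fold change −0.45, adjusted p = 0.0276 by edgeR). The call of Csf1r was lost without CTRL replicate 2, 4 or 6 or DPAn-6 replicate 1, 2, 3 or 4, with an adjusted p of 0.106 at most. That of Vsir was lost without CTRL replicate 1, 2, 4 or 6 or DPAn-6 replicate 1, 3, 4 or 5, with 0.105 at most. The 1 gene in the other direction, Slc2a5, the fructose transporter, was chosen for mention after its values were seen; it had 24 to 139 counts per mouse and a log2 fold change of 1.06 (edgeR adjusted p = 0.200).

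Of 16 disease-associated microglial genes, 5 were called, all lower in DPAn-6 mice, against 1.14% of all genes. The 16 genes had a median log2 fold change of −0.47, with 13 negative (51.3% of all genes were), and a median of −0.53 without CTRL replicate 3. Spp1, which encodes osteopontin, fell by 2.16 on the log2 scale (edgeR adjusted p = 0.00301), from 6.25 ± 0.62 (SD) in the 7 CTRL mice to 4.16 ± 0.47 log2 CPM (SD) in the 5 DPAn-6 mice. Gpnmb, a glycoprotein of lysosome-rich macrophages, fell by 1.49, Itgax (CD11c) by 1.05, Cst7 (cystatin F) by 1.01 and Axl, a receptor for apoptotic cells, by 0.41 (edgeR adjusted p from 0.00551 to 0.0195). The groups did not overlap in any of these 5 genes, a separation in this direction that 1.49% of all genes showed. Axl lost the call without DPAn-6 replicate 2 (adjusted p = 0.0526), 3 (0.0848) or 4 (0.0729), whereas the other 4 kept it in 12 of 12 such fits. With Ttr as covariate Spp1 alone of the 16 was called (0.0829% of all genes were, as lower). In 14-month mice 0 of the 16 were called (0.0376% of all genes were, as lower). At an unadjusted p below 0.05, 7 of the 16 were lower in 14-month mice, against 5.36% of all genes.

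Neighbouring genes in the genome were examined for the same difference. The 16 genes that contain one of the 9 or are the nearest tested gene on either side without overlap, other than the 9 themselves, had a median log2 fold change of 0.02, 7 negative, and log2 fold changes from −1.50 to 0.51. The 5 tested genes that overlap a part of Cx3cr1 (Wdr48, Gorasp1, Ttc21a, Csrnp1 and Gm33858) were not counted among them. Scn10a, a sodium channel gene 182293 bases from Cx3cr1, was the 1 gene called (−1.50, edgeR adjusted p = 0.0292), at 0.85 ± 0.47 (SD) and −0.69 ± 0.72 log2 CPM (SD), a low level, and the call was lost without CTRL replicate 4, 5 or 6 or DPAn-6 replicate 1, 2, 4 or 5 (adjusted p of 0.0999 at most). Coro1c next to Selplg had 0.00 and Hipk1 next to Olfml3 had −0.13.

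Levels of the 9 genes were also compared with each other across the 12 mice, after each group was centred on its own mean, for all 36 pairs. P2ry13 and Gpr34 followed each other most closely (Pearson r = 0.978, permutation p = 4e-05, Benjamini-Hochberg adjusted 0.00144; Spearman rho = 0.944, permutation p = 0.00011, adjusted 0.00396). Without the 2 mice farthest from the median of P2ry13, CTRL replicates 3 and 4, r was 0.926. P2ry12 and P2ry13 had r = 0.934 (permutation p = 0.0005, adjusted 0.009) and rho = 0.881 (permutation p = 0.00099, adjusted 0.0119), and r = 0.793 without the 2 farthest mice. P2ry12 and Gpr34 had r = 0.896 (permutation p = 0.00173, adjusted 0.0208) and rho = 0.860 (permutation p = 0.00146, adjusted 0.0131). For this pair r was 0.633 without the 2 farthest mice, and without CTRL replicate 3 it no longer passed the adjustment (r = 0.736, permutation p = 0.0193, adjusted 0.116). These were the 3 of 36 pairs whose r passed the adjustment. These 3 genes have the lowest GC content of the 9, and the part of GC in their relation was not tested.

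A second pair, the neighbours Selplg and Tmem119, depended on 1 mouse. Over all 12 mice r was 0.507 (permutation p = 0.141, adjusted 0.363) and rho was 0.867 (permutation p = 0.00095, adjusted 0.0119), and without the 2 mice farthest in Selplg, DPAn-6 replicates 3 and 4, r was 0.496. Without CTRL replicate 3, in which Tmem119 was low and Selplg was not, r was 0.912 (permutation p = 0.00064, adjusted 0.0115). Cx3cr1 and Sall1 had r = −0.05 and rho = 0.27 over all 12 mice (permutation p = 0.904 and 0.462, adjusted 0.964 and 0.792) and r = 0.825 (permutation p = 0.00358, adjusted 0.0371) without CTRL replicate 3. Of the 36 pairs 26 were positive over all mice, with a median r of 0.16, and 34 were positive without CTRL replicate 3, with a median of 0.35. Over all 12 mice Olfml3 was not closely tied to any of the others, with r between −0.29 (Sall1) and 0.29 (Selplg). Without CTRL replicate 3 its r ran from −0.37 (Sall1) to 0.53 (Gpr34, permutation p = 0.124, adjusted 0.406), and none passed the adjustment.

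**Figure D5:**
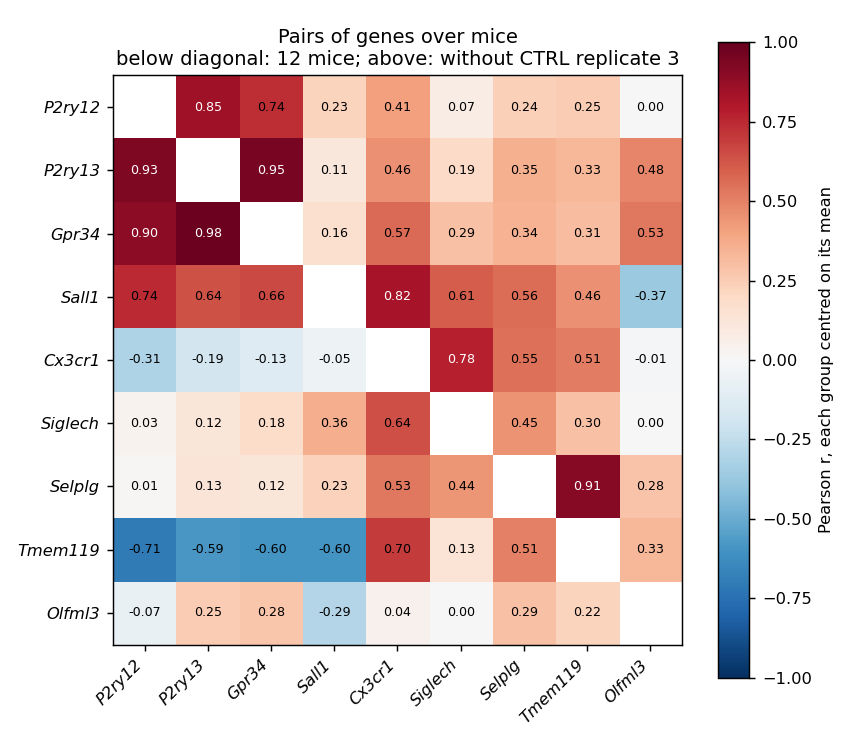
Pearson r of log2 CPM for each pair of the 9 genes over mice, each group centred on its mean, on a colour scale from −1 to 1, with all 12 mice below the diagonal and without CTRL replicate 3 above it. P2ry12, P2ry13 and Gpr34 form the block of highest r at upper left (0.90 to 0.98 over 12 mice), and Selplg with Tmem119 goes from 0.51 to 0.91 without CTRL replicate 3.

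The mean of the 9 standardized levels served to find the genes that followed the list most closely over the 12 mice, each group centred on its mean, as a description. The highest r were those of Parvg (0.956), Gsap (0.947), Fcgr3 (0.937), Laptm5 (0.915), Steap3 (0.915), Galnt4 (0.915), Cd9 (0.913), Gcnt1 (0.908), Gpr84 (0.905) and Hcls1 (0.905). Without CTRL replicate 3, 5 of these 10 were still among the 10 genes with the highest r, and the other 5 places were taken by the astrocyte markers Aqp4 (0.949) and Slc1a3 (0.947) and by Ikzf1 (0.941), Serf2 (0.941) and Gpr17 (0.927). These points share the libraries with the 9 genes, and the r of single genes of the list with the same mean ran from 0.01 (Tmem119) to 0.72 (Gpr34), and from 0.37 (Olfml3) to 0.84 (Cx3cr1) without CTRL replicate 3. None of the 10 passed the threshold between the groups, with log2 fold changes from −0.45 to −0.08 and edgeR adjusted p from 0.0864 to 0.821.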

How the data were processed

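The values used are raw counts per gene, which the authors deposited for 12 mice with no normalization. Libraries were poly(A)-selected, and reads were aligned and counted with STAR 2.5.3a on GRCm38. Which strand was counted is not given in the sources used here. Identifiers were paired with symbols by GENCODE M21 (50339 of 50563), and 30214 genes had a count. Log2 CPM was computed with 0.5 added to each count, and log2 RPKM (on the union of exons) with nothing added. Tests used edgeR 4.0.16 in R 4.3.3 (TMM, filterByExpr, glmQLFit, glmQLFTest). Alternatives used limma 3.58.1 and DESeq2 1.42.0. Permutations used Python 3.11.15, numpy 2.4.6 and scipy 1.17.1, with 100000 resamples for correlations. In 3 simulated data sets of this comparison (15563 genes tested on average, 200 changed), edgeR recovered 90.2% of log2 changes of 1 and 41.5% of changes of 0.5, with 4.17% of its calls false.

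The genes and all lists were chosen with earlier results of these data known, and Tmem119 is a gene that the study itself compared on these mice. Named beside the 9 genes are partner genes, genes of the wider lists past the threshold or with the smallest p, genes that contain or neighbour a member, and the 10 genes most like their mean. With 1 library per mouse, p-values measure the spread between mice. Some genes that these rules would name are not reported here.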

Additional observations from a re-analysis of the deposited data

Results flagged for a closer look

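In CTRL replicate 3, 2 of the 9 genes lay far from the other CTRL mice by Dixon's criterion, the gap to the nearest mouse over the range of the group. P2ry12 had 6.80 log2 CPM in that mouse, with a gap of 0.619 of the range. Tmem119 had 4.69 log2 CPM, with a gap of 0.659. In all, 18 sets of values (9 genes in 2 groups) were examined, and chance alone marks about 1 in 20. Both values are from the library with the GC trend described above, in which P2ry12 has one of the lowest and Tmem119 the highest GC content of the 9 genes. With the length and GC trend removed, the 2 values still lay 0.56 above (P2ry12) and −0.52 from (Tmem119) the mean of the other 6 CTRL mice on the log2 scale.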

How the results depend on the processing

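With 3 of the 9 genes called over all mice, DESeq2 and the length and GC trend removed gave 4, limma-voom 3 and 5 with sample weights, Ttr as covariate 1, 14-month mice only 0, and each mouse left out in turn 2 to 5 (5 without CTRL replicate 3). Over all genes, 243 were called, against 696 by DESeq2, 1267 by limma-voom with sample weights, 17 with Ttr as covariate, 9 in 14-month mice, 514 with the trend removed, 541 without the 3 CTRL mice of highest Ttr (an alternative chosen after seeing the data), and 64 (without DPAn-6 replicate 3) to 953 (without CTRL replicate 3) with 1 mouse left out. The replicate numbers are shared between groups, but same-numbered mice did not deviate together (r from −0.12 to 0.22, over 0.1 in 1 of 5 pairs), and 0 of 5 DPAn-6 mice correlated best with their own number. With the replicate number as a block, 2 of the 9 genes (Tmem119 had an edgeR adjusted p of 0.0939, and Cx3cl1 0.0922) and 69 of all genes were called. With the log2 level of Xist as covariate, 4 of the 9 genes (Siglech, Olfml3, Selplg and Tmem119) and 258 of all genes were called.

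Some uncalled values changed sign. The log2 fold change of Gpr34, −0.47 over all mice, became 0.047 with sample weights. That of Cx3cr1, −0.05 over all mice, became 0.060 in 14-month mice. Cask had −0.0069 with Ttr and −0.019 in 14-month mice, and Abhd12 had −0.018 with sample weights, −0.044 with Ttr and −0.061 without the 3 CTRL mice of highest Ttr. Bmp4 had 0.17 with Ttr, 0.15 in 14-month mice and 0.012 without those 3 mice. In log2 CPM by permutation, Cx3cr1 had 0.088 in 14-month mice. Relative to the myeloid genes, leaving out C1qa, C1qb and C1qc gave −0.093 for P2ry12, −0.069 for P2ry13, −0.0060 for Siglech and −0.024 for Sall1, and the median of the reference gave 0.021 for Selplg. In 14-month mice the relative values were −0.33 for P2ry12, −0.17 for P2ry13 and −0.086 for Sall1. With 1 mouse left out, log2 fold changes ran from −0.11 to 0.0037 for Cx3cr1, −0.015 to 0.084 for Abhd12 and −0.18 to 0.019 for Bmp4, differences in log2 CPM from −0.38 to 0.030 for Gpr34 and −0.079 to 0.032 for Cx3cr1, and relative values from −0.062 to 0.23 for P2ry12 and −0.013 to 0.19 for P2ry13. The causes were not tested. Of the other recomputed values, 923 kept their direction and side of the threshold, 70 fell short of it and 31 came to pass it.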
